A study of Bos taurus with 20 samples.

Results

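Among 20 bovine mesenchymal stromal cell (MSC) clones profiled by RNA sequencing, 5 carried high transcript levels of KRT8, the type II keratin of simple epithelia, and these 5 KRT8-high clones are described here against the other 15. They were chosen by their measured values: a clone was counted as KRT8-high when KRT8 exceeded 100 CPM (counts per 1000000 counts of the library) on its own column total. The 5 clones were 22-5 and 22-9, which were non-adipogenic (N), and 22-11, 22-16 and 23-62, which were adipogenic (A). Each clone was grown from a single sorted MSC of calf fat and its RNA was collected before differentiation. The study compared 10 A clones, taken for their high lipid staining after differentiation, with 10 N clones from the same 4 animals. The labels name no treatment or genetic change, and the name of a clone gives its animal (17, 20, 22 or 23) and then its clone number.

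Keratins 8, 18 and 19 form the intermediate filaments of simple epithelia and of mesothelium, the layer of flat cells that lines the body cavities and covers the visceral organs and fat. Mesothelial cells arise from mesoderm, carry both keratin filaments and vimentin, and are commonly recognised by the transcription factor WT1, the surface proteins mesothelin (MSLN) and podoplanin (PDPN), calretinin (CALB2), the uroplakins UPK3B and UPK1B, LRRN4 and BNC1. MSC are instead recognised by surface markers such as THY1, NT5E and ENG, and adipocyte progenitors by PPARG and CEBPA.

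The KRT8-high clones were not spread evenly over the animals. Animal 22 gave 4 of its 8 clones, 2 A and 2 N, and animal 23 gave 1 of 8, whereas none of the 2 clones from animal 17 or of the 2 from animal 20 exceeded the threshold. They made up 3 of 10 A clones and 2 of 10 N clones, a difference that did not pass Fisher's exact test (two-sided exact p = 1), which treats the clones as independent although 4 of the 5 share an animal. Clones of 1 animal share their source and no label states separate cultures beyond the clone, so the p-values below measure the spread between clones. Total counts ran from 14660814 to 43177907 per clone, with the 5 KRT8-high clones between 14971176 and 28236129. The most similar pair of libraries, 22-11 and 22-16, differed by more than sampling noise, with a chi-square of 21.5 per gene, and all 20 were kept as separate clones.

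On column totals, KRT8 was at 5290 CPM in 22-5, 3035 in 22-9, 573.6 in 22-11, 453.4 in 22-16 and 162 in 23-62. Nearest below the threshold were 23-68 at 12.55 CPM, 22-27 at 7.443 and 23-10 at 3.004. A threshold of 200 CPM would leave out 23-62. In every later sentence CPM is scaled by TMM, a between-library scaling of edgeR, and is not corrected for transcript length, so levels are compared between clones and not between genes. These are bulk libraries, in which fewer cells of a type and less RNA per cell cannot be told apart. Reads shared with near-identical copies were not counted, since the authors kept unique alignments, and how this bears on the keratin genes was not tested.

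KRT19 and KRT18, the type I partners of KRT8, differed in how cleanly they followed it. KRT19 reached 2250 CPM in 22-5, 1800 in 22-9, 160 in 22-11, 229 in 22-16 and 114 in 23-62, and no other clone was above 10.1 (17-57). All 5 KRT8-high clones thus lay above all 15 others for KRT19. KRT18 reached 818, 723, 73.9, 102 and 30 CPM in the same order, but the N clones 23-74 at 82.7 and 23-22 at 37.3 CPM reached into that range and 23-10 at 29.8 CPM came just below it, while their KRT8 was at or below 2.85 CPM. KRT7, another type II simple keratin, was at 23.6 CPM in 22-9, at most 1.96 in the other 4 KRT8-high clones and at most 0.539 elsewhere. KRT20 had no count in any clone.

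WT1 did not mark these clones. It was at 204 CPM in 22-5, 257 in 22-9, 59.4 in 22-11, 39.3 in 22-16 and 31.3 in 23-62, and among the other clones it ranged from 0 to 178 CPM with the highest values in 23-22 (178), 23-10 (149) and 23-74 (138). In animals 17 and 20, and in 22-18, WT1 had no count. The fitted log2 difference between KRT8-high and other clones, with condition and animal as covariates, was 1.72 ± 1.15 (SE) for WT1, against 9.68 ± 1.65 for KRT19 and 7.01 ± 1.69 for KRT18. Because measured KRT8 formed the groups, all such differences are descriptions and carry no test.

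**Figure D1:**
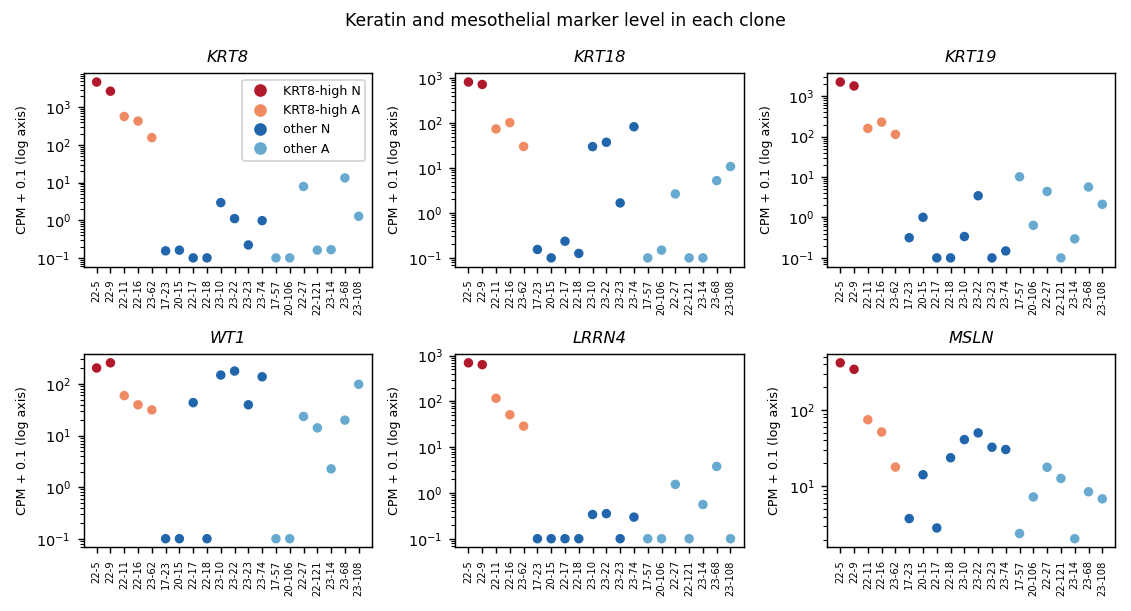
Level of 3 keratin genes and 3 mesothelial markers in each of the 20 clones, as TMM-scaled CPM plus 0.1 on a log axis, 1 point per clone. KRT19 and LRRN4 separate the 5 KRT8-high clones (red and orange) from all others (blue), while KRT18, WT1 and MSLN overlap, with WT1 reaching 178 CPM in another N clone.

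Of the other mesothelial markers, LRRN4 and CRB2 followed KRT8 and the better known MSLN, UPK3B and CALB2 did not separate the groups. LRRN4, a leucine-rich repeat membrane protein, was at 696 CPM in 22-5, 634 in 22-9, 117 in 22-11, 51 in 22-16 and 28.7 in 23-62, and at most 3.69 in any other clone. CRB2, a member of the crumbs family of apical polarity proteins, was at 407, 310, 25.6, 18.6 and 19.5 CPM and at most 1.38 elsewhere. For both genes the 2 N clones were the highest of all 20 and the 3 A clones came next. MSLN was at 416, 342, 74.6, 51.5 and 17.8 CPM, so that 23-62 fell inside the range of the other clones, which reached 50.1 in 23-22. UPK1B was at 970, 549, 84.7, 91.6 and 40.2 CPM, but 23-10 had 378 CPM. The overlapping clones for MSLN and UPK1B were from animal 23, except 22-18 for MSLN (23.6 CPM). BNC1, a zinc finger factor, was at 220, 228, 35.2, 25.4 and 15.5 CPM, and 4 N clones of animal 23 held between 4.84 and 39.6. UPK3B stayed between 3.17 and 16.3 CPM in the KRT8-high clones and between 2.09 and 15 in the rest. CALB2 was at or below 0.0616 CPM everywhere, and PDPN was at 19.7, 7.82, 112, 86.9 and 36.4 CPM against 0 to 46.4 in the others.

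Of the 25 genes listed as mesothelial, 24 were in the table and 19 passed the filter on low counts, 4 of which (LRRN4, MUC16, CRB2 and ALDH1A2) were higher in all 5 KRT8-high clones than in all others. Over all 14926 genes with KRT8 left out, 75 genes, or 0.502%, were separated in this way. A fitted difference of at least 4-fold in favour of the KRT8-high clones was seen for 12 of the 19, beside 528 genes, or 3.54%, over all genes, and the median log2 difference was 2.67 beside -0.0112 over all genes. The filter kept 2018 genes only through the KRT8-high clones, and genes of that kind had to differ, so these counts describe the list and are no evidence for it. The label mesothelial-like therefore rests on part of the usual marker set, and the clones are called KRT8-high throughout. The summed level of the list was 4090 to 4670 CPM in the 2 KRT8-high N clones, 942 to 1720 in the 3 KRT8-high A clones and 667 to 1520 in the others, so for the sum the A clones overlapped the other clones.

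The 12 separated genes with the largest fitted differences were KRT19, CRB2, LRRN4, PRRG4, PODXL, KLHDC7A, ALDH1A2, FGG, SCEL, NDNF, BMP7 and DSG2. PODXL, which encodes podocalyxin, a sialomucin of apical surfaces, was at 2520 CPM in 22-5, 2820 in 22-9, 178 in 22-11, 154 in 22-16 and 70.6 in 23-62, with 23-68 the highest of the others at 54.5. ALDH1A2, which makes retinoic acid from retinal, was at 69, 70.7, 12.8, 10.2 and 10.5 CPM and at most 0.579 in the rest. BMP7, a secreted ligand of the BMP pathway, was at 62.5, 33.2, 8.32, 8.56 and 5.24 CPM and at most 0.457 in the rest. All 3 genes share a pattern in which the N clones stood well above the A clones and the A clones stood above everything else.

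Fitted log2 differences were 8.93 ± 2.16 (SE) for PODXL, 7.88 ± 0.97 for ALDH1A2 and 6.80 ± 0.999 for BMP7. DSG2, a desmosomal cadherin, was more even across the group, at 21.9, 31.6, 14.7, 8.99 and 11.3 CPM, with 20-106 the highest other clone at 4.36. It was the gene of this set with the smallest spread among the 5 clones as a ratio. FGG, the gamma chain of fibrinogen, was at 68.7, 48.1, 3.91, 8.07 and 2.99 CPM, and 23-68 came close at 2.75. NDNF, a secreted neurotrophic factor, was at 34.9, 115, 10.5, 2.34 and 3.11 CPM against at most 1.28. PRRG4, KLHDC7A and SCEL were close to absent elsewhere, with 3, 2 and 4 counts summed over the 15 other clones, and no fold is given for them. In the KRT8-high clones PRRG4 ranged from 0.616 to 31 CPM, KLHDC7A from 0.427 to 27.9 and SCEL from 0.493 to 13.3, in each case with the highest value in an N clone.

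**Figure D2:**
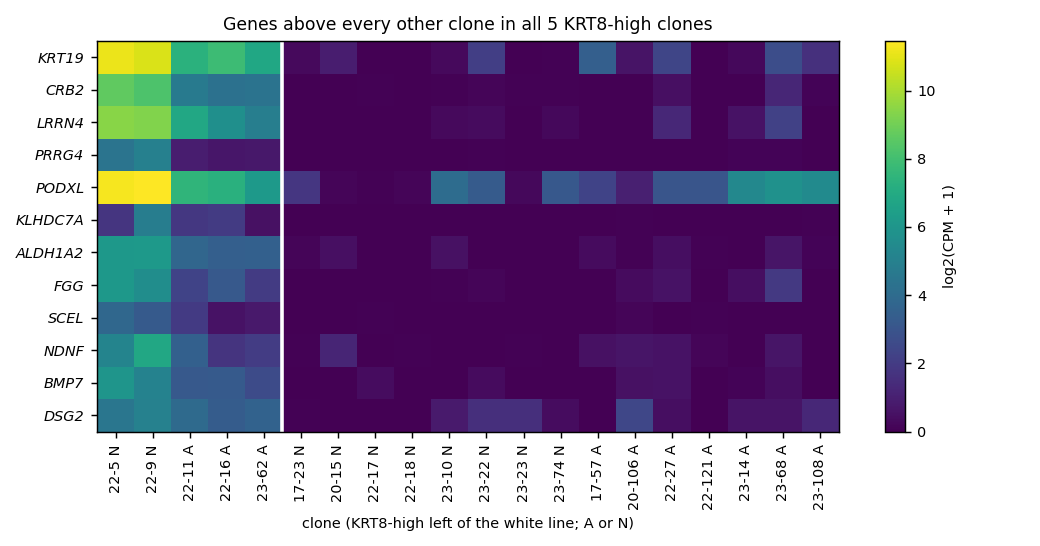
Levels of the 12 named genes that were higher in all 5 KRT8-high clones (left of the white line) than in all 15 others, as log2(CPM + 1), with 1 column per clone and 1 row per gene. The 2 N clones 22-5 and 22-9 are the brightest in nearly every row, and PODXL is the gene with the most signal in other clones, up to 54.5 CPM.

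Separated genes that were lower in the KRT8-high clones were fewer and their differences were small. They numbered 24, or 0.161% of genes, and the 12 with the largest fitted differences ran from -1.21 (GNA14) to -0.46 (ATXN7L1) on the log2 scale. GNA14, a G protein alpha subunit, was at 18.4 CPM in 22-5, 31.6 in 22-9, 31.3 in 22-11, 27.2 in 22-16 and 34.5 in 23-62, against 35.6 to 94.9 in the others. SNX7, a sorting nexin, was at 6.95, 8.18, 6.15, 7.76 and 7.25 CPM, against 8.48 to 18.3. MUT, the mitochondrial methylmalonyl-CoA mutase, was at 24.7 to 43.3 CPM against 44.1 to 69.7. In each of these 3 genes the gap between the groups was narrow. At least 4-fold lower fitted levels were seen for 50 genes, or 0.335%, a count that was 124 without 23-62, 101 without 22-9 and 155 without the animal block.

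The lower count depended on scaling. With CPM on column totals 105 genes were separated higher and only 1 lower, so 99.1% of separated genes were higher in place of 75.8% with TMM, and the median difference of the 9088 genes with a mean of at least 10 CPM moved from -0.0488 to 0.0604 on the log2 scale. Single clones moved the counts, with 148 higher and 65 lower when 23-62 was left out, 64 lower without 22-9 and 38 lower without 22-16. Without both N clones, 226 genes were higher and 147 lower, an alternative chosen after seeing the data. Leaving out KRT8-high clones can only keep or raise these counts, so only the size of the change is informative.

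Junction genes were partly epithelial in kind. Of 35 listed genes of epithelial junctions and identity, 23 passed the filter, 9 were at least 4-fold higher and 3 (DSG2, LSR and MAL2) were separated, and 21 of the 23 had a fitted difference above 0 with a median of 1.57. Over all genes 3.54% were at least 4-fold higher, 0.502% were separated and 48.8% were above 0, and junction genes kept by the filter only through the KRT8-high clones had to differ. MAL2, a protein of apical transport, was at 35.4, 30, 2.67, 2.59 and 1.95 CPM in 22-5, 22-9, 22-11, 22-16 and 23-62 and at most 0.822 elsewhere. LSR, a tricellular junction protein, was at 17.3, 24.8, 2.24, 1.79 and 1.52 CPM, with 1.52 CPM also the level of 17-23 to the digits given. The genes that define most other epithelia were low. CDH1 (E-cadherin) was at 7.91, 2.39, 5.3, 3.26 and 6.22 CPM against 0 to 2.6, EPCAM was below 1 CPM in every clone, and CLDN3, CLDN4, ESRP1 and GRHL2 did not pass the filter. Of 8 keratin and TP63 genes of stratified epithelia only KRT17 passed, at 0, 0.895, 3.13, 1.17 and 0 CPM, and it had no count in any other clone.

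CLDN1, a tight junction claudin, was at 128 CPM in 22-9 and 27 in 22-11 but at 1.97 or less in 22-5, 22-16 and 23-62, and other clones reached 57.9. Of basement membrane genes, 5 of 25 were at least 4-fold higher and 1 at least 4-fold lower, beside 3.54% and 0.335% of all genes. AGRN, the heparan sulphate proteoglycan agrin, was at 335, 215, 20.3, 21 and 23.2 CPM, against 2.12 to 22.4 in the others, and COL4A5, a type IV collagen chain, was at 52.3, 16.6, 26.6, 15.5 and 8.65 against 0 to 32.4. COL4A1, the common type IV collagen chain, went the other way in 22-5, with 192 CPM, and was at 1280, 1880, 1820 and 2510 in the other 4 against 0 to 6360.

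The stromal programme showed a split inside the KRT8-high group. THY1 was at 0.393 CPM in 22-5, 30.9 in 22-9, 95.3 in 22-11, 127 in 22-16 and 45.8 in 23-62, and at 12.3 to 202 in the other clones. NT5E was at 0.505, 47.7, 123, 99.6 and 91.8 CPM against 32.3 to 404, and ENG at 19, 164, 378, 361 and 605 against 243 to 666. Thus 22-5 lay below all 15 other clones for these 3 genes and 22-9 did so for ENG, whereas the 3 A clones were within the range of the rest. Of the other surface genes of the stromal list, CD44 and PDGFRA did not show this. CD44 was at 950 and 709 CPM in 22-5 and 22-9 against 230 to 1250 in the others. PDGFRA was at 166 and 158 against 36.1 to 511. PDGFRB did show it in both N clones, at 59.2 and 118 CPM against 249 to 864. VIM, the mesenchymal intermediate filament, was at 3250 and 4850 CPM in the N clones and at 7900 to 9990 in the A clones, against 6540 to 13500. The collagens were present in all 5, with COL1A1 at 6240 to 14700 CPM and COL1A2 at 11600 to 21500, and PTPRC, the leukocyte marker, was at or below 0.249 CPM in every clone.

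ACTA2, the smooth muscle actin, was at 98.7 CPM in 22-5, 996 in 22-9, 1960 in 22-11, 1910 in 22-16 and 1880 in 23-62, against 245 to 7390 in the others. PDGFRB, a pericyte and stromal receptor, was at 59.2, 118, 362, 253 and 243 CPM against 249 to 864. LAMA4, a laminin chain, was at 5.05, 146, 413, 508 and 712 CPM against 52 to 1220, and CCL2, a monocyte chemokine, was at 0, 0.298, 225, 183 and 128 against 0.245 to 804. In each of these genes the N clone 22-5 was the lowest of the 5. None of the 18 stromal or 19 smooth muscle genes that passed the filter was separated between all KRT8-high and all other clones, and their median fitted log2 differences were -0.39 and -0.86. The summed smooth muscle list ran from 5560 to 10400 CPM in the N clones and from 15400 to 16800 in the A clones, against 8540 to 30300.

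**Figure D3:**
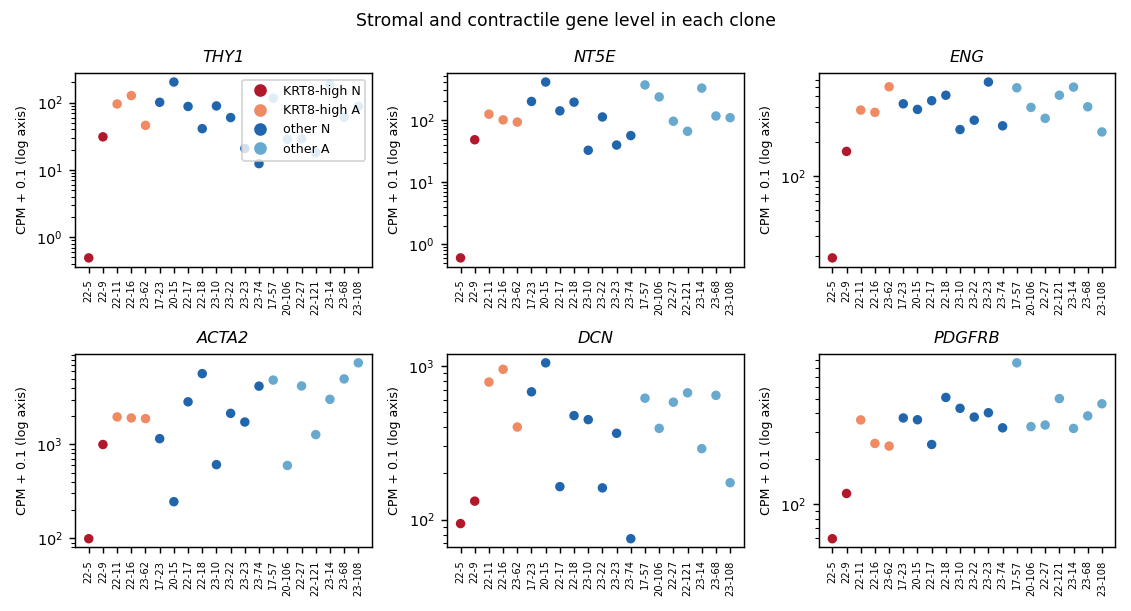
Level of 6 stromal and contractile genes in each clone, as TMM-scaled CPM plus 0.1 on a log axis, 1 point per clone. Clone 22-5 is far below the rest for THY1 (0.393 CPM) and NT5E (0.505 CPM), while the 3 KRT8-high A clones sit among the other clones for all 6 genes except PDGFRB in 23-62 (243 CPM), just below the other clones.

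Whole profiles showed the same split, as a description over 500 variable genes. Clones 22-5 and 22-9 had each other as nearest neighbour, with a Pearson r across genes of 0.772. Clones 22-11 and 22-16 were the closest of all 190 pairs with r = 0.932, and 23-62, although from another animal, was nearest to 22-16 with r = 0.84. Next nearest to 23-62 was 22-27 (r = 0.813), which is not KRT8-high, ahead of 22-11 (r = 0.801). For 22-5 and 22-9 the next nearest were 23-74 (r = 0.44) and 23-22 (r = 0.48), N clones that are not KRT8-high. Between 22-5 and the 3 A clones r was only 0.167 to 0.202, and 22-9 was closer to them at 0.305 to 0.353. Clones 22-5 and 22-9 share the animal and the condition, as do 22-11 and 22-16, and the 500 genes are not independent.

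To see how far the KRT8-high state of the N clones appeared in A clones, genes were listed among N clones alone and then read in A clones. This list was drawn up after the data had been seen. In all, 149 genes were at least 8-fold higher in 22-5 and 22-9 than in the other 8 N clones, above every one of them, and at a mean of at least 10 CPM. Of these, 52, or 34.9%, were higher in 22-11, 22-16 and 23-62 than in all 7 other A clones and 0 were lower. The same separation was seen for 3.46% of all genes (higher) and 2.89% (lower). Since KRT8 chose the A clones as well, the share is a description.

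For the 149 genes, levels in A clones were a small part of those in 22-5 and 22-9. The genes were listed for their high levels in 22-5 and 22-9, and that choice by itself tends to lower the percentages below. The percentages therefore describe the list and do not measure how much weaker the KRT8-high state is in A clones. Set against the mean of 22-5 and 22-9, the median of the 149 genes was 15.7% in 22-11, 13.8% in 22-16 and 8.45% in 23-62, and between 1.03% (17-57) and 3.15% (22-27) in the other A clones. KRT8 itself was at 15.5%, 11.7% and 4.24% of its level in 22-5 and 22-9, and since KRT8 formed the groups these values are a description too. The other 8 N clones had medians of 0.579% to 2.89%. The 19 genes that were lower in 22-5 and 22-9 by the same limits included 0 that were lower in all 3 KRT8-high A clones than in the other A clones, beside 2.89% of all genes, a share too small for 19 genes to be read. Whether every cell of an A clone holds less of these transcripts or a part of its cells holds more cannot be told apart.

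**Figure D4:**
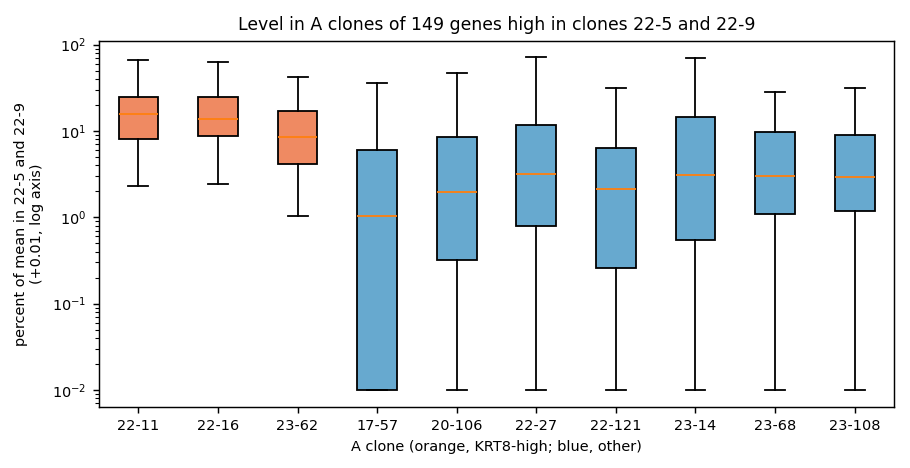
Level of the 149 genes in each A clone as a percent of their mean in 22-5 and 22-9, plus 0.01, on a log axis (box, quartiles; line, median; whiskers, 5th to 95th percentile over genes). The 3 KRT8-high A clones (orange) have medians of 8.45% to 15.7%, above the 1.03% to 3.15% of the other A clones (blue). The genes were listed for high levels in 22-5 and 22-9, which tends to lower all these percentages.

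Animal 22 held both groups in both conditions, and within it 876 genes, or 5.87%, were higher in all 4 KRT8-high than in all 4 other clones and 898, or 6.02%, were lower. Clone 23-62 played no part in those lists. Against the other 7 clones of animal 23 it was highest for 184 of the 876 genes (21%) and lowest for 84 (9.59%), beside 13.9% and 12.5% of all genes. Of the 898 genes, it was lowest for 132 (14.7%) and highest for 86 (9.58%). For most genes separated in animal 22, therefore, 23-62 lay within the range of the clones of its own animal. Clone 23-62 had the lowest KRT8 of the 5 and was chosen by the same gene, so no test was made.

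A fit with an interaction of condition and KRT8 group asks where the A minus N difference was larger or smaller among KRT8-high than among other clones. Both KRT8-high N clones come from animal 22, and they held more KRT8 than the 3 A clones (3035 and 5290 CPM on column totals against 162 to 573.6). Measured KRT8 formed the groups, so a gene whose level follows KRT8 takes a negative interaction from the choice of clones, and the interaction is given as a description and not as a test of condition. In edgeR, with animal as a block, 99 of 14926 genes, or 0.663%, were under an adjusted p of 0.05. Of the 99, 84 had a negative interaction, meaning that the A minus N difference was lower among KRT8-high clones, and 15 had a positive interaction. For 65 of the 84, the 2 KRT8-high N clones were above all 18 other clones, an arrangement seen for 868 genes, or 5.82%, over the table. For 9 of the 15 they were below all 18, which was seen for 3.47% of genes.

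PAK4, a serine/threonine kinase of the actin cytoskeleton, had the smallest p of the fit. It was at 82.7 CPM in 22-5 and 88 in 22-9, and at 22.4, 18.5 and 30.2 in 22-11, 22-16 and 23-62, while the other N clones ranged from 25.5 to 30.8 and the other A clones from 22 to 28.9. The 2 KRT8-high N clones stood well above all the rest, and 22-16 lay below the lowest of the other clones (22 CPM). The interaction was -1.72 ± 0.18 (SE) on the log2 scale and combines an A minus N difference of -1.94 among KRT8-high clones with one of -0.22 among the others.

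NAB1, a corepressor of EGR factors, was at 47.7 and 43.1 CPM in the N clones 22-5 and 22-9 and at 16.1 to 18.9 in the 3 A clones, with 16.5 to 38 in the others (-1.62 ± 0.21, SE). TLE4, a transcriptional corepressor, was at 41.4 and 34.9 CPM, then 13.1 to 16.2, with 9.47 to 21.4 in the others (-1.75 ± 0.29, SE). In both genes the KRT8-high A clones lay at the low end or inside the range of the other clones. PHACTR4, a phosphatase and actin regulator, was at 71.8 and 45.7 CPM, then 21.6 to 24.7, with 21.5 to 32.8 in the others (-1.29 ± 0.19, SE). TOR4A, a torsin family member, was at 29.4 and 15.2 CPM, then 2.34 to 4.2, with 2.26 to 10.4 in the others (-3.22 ± 0.43, SE). CNNM1, a cyclin M family transporter, was at 72.2 and 23.8 CPM, then 0.67 to 3.14, with 0 to 3.27 in the others (-7.55 ± 1.13, SE). All 5 repeat the arrangement of PAK4, with the KRT8-high N clones highest.

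Listed genes among the 99 were CRB2, which follows KRT8 across the 5 clones as described above, AGRN of the basement membrane genes, FASN of the adipocyte lipid genes and HOXA3 of the HOX genes. FASN, the fatty acid synthase, was at 681 and 967 CPM in 22-5 and 22-9 and at 192 to 297 in the 3 A clones, against 152 to 451 in the others (interaction -1.54). The number of genes under the threshold was unstable. It was 2 without 22-11, 1 without 22-16, 6 without 22-5 and 187 without 22-9, and 7 within animal 22 alone, so single clones decided it.

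Among the genes the study followed as adipogenic or sorting markers, PPARG, the nuclear receptor that drives adipogenesis, was near 0 in the KRT8-high N clones (0 and 0.0597 CPM) and at 4.27, 6.03 and 7.98 CPM in the KRT8-high A clones. Other N clones had 0 to 6.34 CPM and other A clones 4.58 to 19.8. With the KRT8 group as a covariate, PPARG was higher in A than in N by 4.24 ± 0.77 on the log2 scale (edgeR adjusted p = 0.00211) and by 3.77 ± 0.80 without it (edgeR adjusted p = 0.00478). ANPEP (CD13), an aminopeptidase, was at 0 and 0.358 CPM in the KRT8-high N clones and at 22.9, 17.4 and 26.3 in the KRT8-high A clones, within the 1.62 to 547 CPM of other A clones (6.42 ± 1.21, edgeR adjusted p = 0.00246). THBD (CD141), thrombomodulin, was at 0 and 1.79 CPM and then 167, 92.5 and 107 (6.12 ± 1.64, edgeR adjusted p = 0.015). The KRT8 group is a split on a measured gene of these libraries. Without that group in the fit ANPEP and THBD passed as well (edgeR adjusted p = 0.0034 and 0.0118). The KRT8-high A clones thus carried these 3 A markers at levels inside the range of the other A clones, except for PPARG in 22-11, which was just below it. Not all adipogenic genes did so. AGPAT2, of the adipocyte lipid genes, was at 8.25, 11.2 and 7.8 CPM in 22-11, 22-16 and 23-62, below all other A clones (16.5 to 55.2). CEBPA was at 0.498, 0.185 and 0.609 CPM against 0.217 to 5.73 in the other A clones. FABP4 was at 19.8, 17.1 and 2.19 CPM against 2.49 to 17.8.

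CD55, a complement regulator, was lower in A clones (-3.04 ± 0.59, edgeR adjusted p = 0.00284), with 425 and 281 CPM in the KRT8-high N clones and 54.2, 57.5 and 29.3 in the KRT8-high A clones. CD34, a sialomucin of progenitors, was lower in A clones too (-3.07 ± 0.63, edgeR adjusted p = 0.00361), at 5.44 and 60.2 CPM and then 10, 11.5 and 8.59, which exceeded all 7 other A clones (0 to 8.09). CEBPA (1.98 ± 0.74, edgeR adjusted p = 0.0616), CD36 (1.78 ± 0.64, edgeR adjusted p = 0.0536), FABP4 (1.01 ± 0.76, edgeR adjusted p = 0.339) and PDGFRA (-0.31 ± 0.36, edgeR adjusted p = 0.556) did not pass. PLIN1, the lipid droplet protein perilipin, was 0.53 ± 0.19 higher in A clones (edgeR adjusted p = 0.0494). CEBPA and CD36 came under 0.05 in DESeq2 (0.0122 and 0.00875) and limma-voom (0.0334 and 0.0158), and PLIN1 went over it without 22-11 (0.0737), 22-16 (0.071), 22-5 (0.105) or 22-9 (0.109), all as adjusted p. Within animal 22 alone PPARG, THBD, CD34 and PLIN1 did not pass, with edgeR adjusted p of 0.132, 0.232, 0.217 and 0.14, and THBD did not pass in limma-voom (adjusted p = 0.107).

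**Figure D5:**
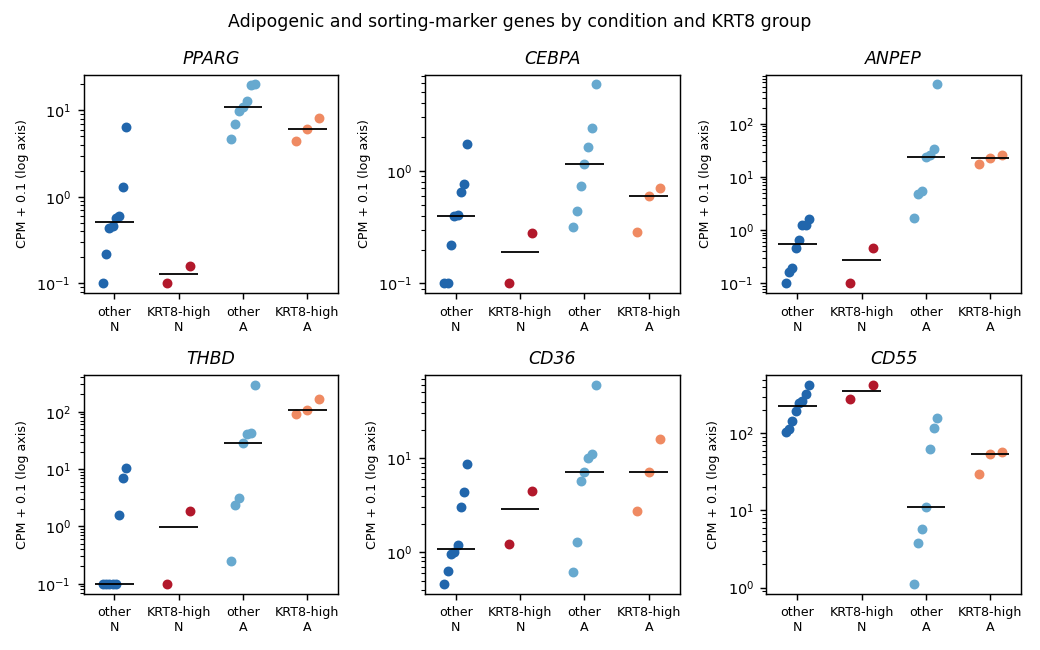
Level of 6 of the followed genes in each clone by condition and KRT8 group, as TMM-scaled CPM plus 0.1 on a log axis (points, clones; line, median of the group). For PPARG, ANPEP and THBD the 3 KRT8-high A clones lie with the other A clones and the 2 KRT8-high N clones with the other N clones, at 1.79 CPM or less.

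More genes passed for A against N when the KRT8 group was in the fit. With it 3602 of 14927 genes, or 24.1%, passed, 1917 higher in A (12.8%) and 1685 lower (11.3%), and 1292 of them were at least 2-fold (911 higher, 381 lower). Without it 3057 passed, 1627 higher and 1430 lower, and 1152 were at least 2-fold (855 higher, 297 lower). The fits shared 2971 genes, which is 82.5% of the first set and 97.2% of the second. The KRT8 group came from a measured gene of the same libraries, and its N clones held the most KRT8. Genes that follow KRT8 can thus gain a call from the choice of clones, so the rise is a description. By list, 10 of 19 smooth muscle genes were higher in A and 0 lower, among them ACTG2, MYH11 and CNN1, and 19 of 24 proliferation genes were lower in A and 0 higher.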

How the data were processed

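RNA from 20 clones was sequenced and, per the submitters' processing notes, reads were handled with bcl2fastq 2.20, Trimmomatic 0.36, STAR 2.5.2b and featureCounts of Subread 1.5.2 on the bovine genome ARS-UCD1.2. The authors deposited raw counts per gene, from uniquely aligned reads within exons. The strand setting is not given in the sources used here, so overlapping antisense genes cannot be told apart. The table held 33064 rows, of which 23383 named genes had a count. Its 1 row with no gene name took 0.113% to 0.333% of each column and was left out of the tests and library sizes.

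KRT8-high clones were those above 100 CPM on column totals. The members and the gene lists were chosen with earlier results of these data known. Genes were filtered with filterByExpr on condition and KRT8 group (14927 kept), scaled by TMM and fitted with edgeR 4.0.16 (R 4.3.3) quasi-likelihood models in which the animal was a factor because the study drew the A and N clones in equal numbers from each animal. Adjusted p-values are Benjamini-Hochberg over all genes tested, with a threshold of 0.05. Differences between KRT8-high and other clones are coefficients with SE and no p. A gene was called separated when all clones of a group lay on the same side of all others. Named genes were KRT8 and its given markers, the 12 separated genes per direction with the largest fitted difference at a mean of at least 5 CPM in the higher group, up to 4 genes with the largest absolute difference per list together with the genes that define its cell type, the 6 smallest interaction p-values, and the 10 genes the study followed. Genes named beyond these, which are VIM, COL1A2, UPK1B, TBX18, LAMA4, CCL2, COL4A1, FASN and MUC16, were picked after their values were seen. Alternatives were DESeq2 1.42.0, limma-voom (limma 3.58.1), other scalings, filters, covariates and clones left out. Scripts were tested on simulated counts. In a clone with no count of a gene, up to 3 counts are allowed by counting error alone.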

Additional observations from a re-analysis of the deposited data

Results flagged for a closer look

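Of 62 sets of clones examined for a value far from the rest, 2 were singled out, where chance alone would single out about 1 in 20. In the 5 KRT8-high clones EFS, an adaptor protein of SRC family kinases, was at 1.01 CPM in 22-5 and at 11 to 19.3 in the other 4, and the gap took up 0.805 of the range of log2 CPM. LOC100297097 was at 12.4 CPM in 22-5 and 15.1 to 16.2 in the other 4, with a gap of 0.722 of the range. Both genes belong to the separated lower group, and for both the other 15 clones lay higher still.

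For 6 genes the A minus N difference had an interaction with the KRT8 group in edgeR under an adjusted p of 0.05, with log2 interactions of -1.72 for PAK4, -1.62 for NAB1, -3.22 for TOR4A, -1.29 for PHACTR4, -7.55 for CNNM1 and -1.75 for TLE4. These are the genes with the smallest adjusted p, and in all 6 the KRT8-high N clones 22-5 and 22-9 held the 2 highest levels of the 20 clones. Since measured KRT8 formed the groups and was highest in those 2 clones, this describes the clones and does not test condition. In animal 22 alone none of the 6 was under the threshold, with adjusted p in edgeR from 0.0628 (TLE4) to 0.136 (PHACTR4), and each but PAK4 also went over it without 22-16.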

How the results depend on the processing

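Membership was the same at 50 CPM and with TMM-scaled CPM, and a threshold of 200 CPM left 4 clones, with 114 genes separated higher and 46 lower. Without a filter on low counts, 1199 genes were at least 4-fold higher, 304 at least 4-fold lower and 50 met the interaction threshold. With at least 10 counts in every clone, which removes genes absent from some clones, these were 27 and 4, 11 genes were separated higher, and 399 differed between A and N by at least 2-fold. Without the animal block 155 genes were 4-fold lower and 29 met the interaction threshold. In animal 22 alone, with 8 clones, 89 genes were 4-fold lower, and 876 and 898 were separated higher and lower. In the same 8 clones 312 genes differed between A and N by at least 2-fold and 7 met the interaction threshold. PDGFRA turned to 0.659 there (not passing, adjusted p = 0.314 in edgeR). Among A clones only, with fewer clones to separate, 517 and 432 were separated. DESeq2 gave 600 genes for the interaction and limma-voom 210, with 31 genes 4-fold lower in limma-voom. 4-fold lower genes numbered 33 without the condition covariate and 21 from log2 CPM means with a prior count of 2. Separated lower genes numbered 1 on column totals, 15 with DESeq2 size factors and 3 with a 2-fold minimum. Without both KRT8-high N clones 320 genes were 4-fold higher, 226 separated higher and 147 separated lower.

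With each KRT8-high clone left out in turn, 4-fold higher genes ran from 533 to 711 and 4-fold lower from 56 to 124. Separated higher genes ran from 86 to 148, separated lower from 27 to 65 and interaction genes from 1 to 187. A against N genes of at least 2-fold ran from 1096 to 1235, beside 1292 in the main fit. The share of the 149 genes separated in A clones ran from 36.2% to 53.7%, and was 26.9% with a list minimum of 4-fold and 41.7% with 16-fold, both added after seeing the data. By construction, separated counts and this share can only stay or rise when a KRT8-high clone is left out. Where no construction is named, the cause was not tested. Over the single genes' alternatives, 558 kept their direction and call or moved by less than the spread between clones, 38 moved by more, 31 lost and 7 gained a call, and PDGFRA alone changed sign. Over these alternatives the adjusted p ran from 1.66e-09 to 0.132 for PPARG, from 7.88e-08 to 0.232 for THBD and from 2.52e-06 to 0.217 for CD34. The 5 clones from 2 animals limit every comparison here.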

Other observations

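Position and lineage factors varied among the KRT8-high clones. Of 33 HOX genes that passed the filter, 28 had a fitted difference below 0, with a median of -0.58 on the log2 scale, and 2 were at least 4-fold lower, beside 51.2% below 0 and 0.335% at least 4-fold lower over all genes. HOXA13, a posterior HOX gene, was at 0.112, 0.716, 0.427, 0.554 and 0.487 CPM in 22-5, 22-9, 22-11, 22-16 and 23-62, and at 0.457 (22-27) to 33.8 in the other clones, so that 22-27 lay among them. HOXA3, an anterior HOX gene, was at 19.1, 45.3, 7.47, 6.28 and 12.3 CPM against 2.99 to 10.6. Of the urogenital and visceral mesoderm factors, 2 of 27 were at least 4-fold higher, beside 3.54% of all genes. GATA5 was at 49.6 and 39.9 CPM in the N clones and at 2.03 to 3.24 in the A clones, against 0 to 30.6. TBX3 was at 159, 92.7, 34.5, 29.1 and 24.4 CPM against 1.29 to 32.8, and TBX18, which mesothelium also uses, was at 17.6 to 57.8 against 19.6 to 197.

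Proliferation genes were at higher fitted levels in KRT8-high clones for 23 of 24 members (median 0.69 on the log2 scale), beside 48.8% of all genes (median -0.0112), and none was separated. MKI67 was at 202 and 180 CPM in the N clones 22-5 and 22-9, against 25.3 to 156 in the other N clones. It was at 39.5, 32.1 and 97.7 in 22-11, 22-16 and 23-62, against 1.03 to 62.4 in the other A clones. For MKI67, 22-11 and 22-16 thus lay within the range of the other A clones. Of the transition factors, ZEB2 was at 4.88 and 4.42 CPM in the N clones, below all others (8.14 to 21.1), and at 11 to 12.4 in the A clones. Median log2 differences were -0.69 for 12 adipogenic regulators, 0.06 for 15 adipocyte lipid genes, 0.16 for 9 inhibitors of adipogenesis, -0.10 for 12 YAP and TGF-beta responsive genes, -0.02 for 13 intermediate filament genes, -0.17 for 25 basement membrane genes, 0.09 for 14 retinoic acid genes and 0.40 for 11 acute phase and chemokine genes, and none of the genes counted in these lists was separated. ALDH1A2 and KRT19, which were separated, are counted with the mesothelial genes and the simple epithelial keratins. The endothelial list summed to 12.4 to 29.1 CPM in the KRT8-high N clones, 102 to 219 in the KRT8-high A clones and 21.3 to 248 in the others. The macrophage and leukocyte list summed to 1.91 to 2.47, 6.34 to 11.2 and 0.653 to 10.4 CPM in the same order. PECAM1 was at 16, 9.3 and 5.06 CPM in the KRT8-high A clones and at most 7.1 elsewhere. The endothelial genes VWF, CDH5 and KDR did not follow it. VWF was at 6.37, 5.91 and 1.77 CPM in the KRT8-high A clones, against 0.88 to 29.8 in the clones that are not KRT8-high. CDH5 and KDR were at most 0.304 and 0.486 CPM in any clone. Of 6 endothelial genes that passed the filter, 4 had a fitted difference below 0 (median -0.62), beside 51.2% of all genes.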
